A study of Mus musculus with 7 samples.

Results

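App encodes the amyloid precursor protein, and the genes described here are App, its homologues Aplp1 and Aplp2, the β-secretase gene Bace1, the γ-secretase subunit genes Psen2, Ncstn and Aph1b, the α-secretase gene Adam10, and Mapt, which encodes tau. They were chosen by name, as 9 of the 55536 genes in the deposited annotation, and no threshold on a measured value was used, although earlier results of these data were known when the set was drawn up. Their transcripts were counted in nuclei of mouse hippocampus by split-pool barcoding, in which each of 24 first-round wells held the nuclei of 1 mouse. WT-veh wells came from wild-type (Arc-/-) mice on water, WT-PMX wells from wild-type mice given PMX205, Arc-veh wells from Arctic48 mice on water, and Arc-PMX wells from Arctic48 mice given PMX205, with 6 wells per group (3 of each sex). PMX205, a cyclic peptide that blocks the C5a receptor C5aR1, was given at 20 µg/ml in the drinking water, for 12 weeks per the labels. The study's text gives the treatment as a span of ages that is shorter. All mice were on the C57BL/6J background, housed singly and taken at 10 months of age, after perfusion. Arctic48 mice were Arc+/- from the same cross and carry a human APP transgene with the Swedish, Arctic and Indiana mutations. Its promoter was not given in the sources used here, and its transcripts were aligned to the mouse genome, so a count of App can hold reads of the mouse gene and of the transgene, which cannot be told apart here.

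Amyloid precursor protein is a membrane protein that can be cut along competing routes. α-Secretase cuts inside the amyloid-β stretch and so prevents amyloid-β from forming, whereas β-secretase followed by γ-secretase releases amyloid-β, the main component of plaques. The homologues are cut by the same enzymes but contain no amyloid-β stretch, and tau, a microtubule-binding protein, forms the tangles of Alzheimer's disease.

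On GRCm38, with the GENCODE M21 annotation, App (ENSMUSG00000022892) lies at chr16:84949685-85173766 on the minus strand and spans 224 kb. The coding stretch shown here runs from codon 665 to codon 720 of the longest mouse reading frame (transcript App-206, 770 codons), lies between chr16:84962773-84965741 on the minus strand in exons 16 and 17, and is shown because it holds the sites changed in the transgene. Capitals mark the mouse codons at the positions of the Swedish mutations (670 and 671), of the Arctic mutation (693) and of the Indiana mutation (717). The letters are the mouse reference, not the transgene.
App: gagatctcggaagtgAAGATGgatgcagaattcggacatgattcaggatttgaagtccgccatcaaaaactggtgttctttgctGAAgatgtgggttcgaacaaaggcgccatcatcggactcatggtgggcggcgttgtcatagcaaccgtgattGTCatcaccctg

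Aplp1 (ENSMUSG00000006651, chr7:30434982-30445535 on the minus strand) and Aplp2 (ENSMUSG00000031996, chr9:31149557-31211815 on the minus strand) are kept close to App in the cytoplasmic tail, where all 3 proteins carry the NPTY motif that binds adaptor proteins. The 69 coding bases around that motif are set side by side to show how alike the homologues are, with the codons of the motif in capitals. App and Aplp2 shared 50 of the 69 bases (72.5%), App and Aplp1 shared 44 (63.8%), and Aplp1 and Aplp2 shared 45 (65.2%).
App: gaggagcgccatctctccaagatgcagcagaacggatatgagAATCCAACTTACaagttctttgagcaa
Aplp1: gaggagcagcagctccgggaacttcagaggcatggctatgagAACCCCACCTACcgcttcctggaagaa
Aplp2: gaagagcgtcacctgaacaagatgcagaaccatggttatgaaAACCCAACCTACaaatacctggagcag

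Of the enzymes and tau, Bace1 lies at chr9:45838580-45864399 on the plus strand, Psen2 at chr1:180227004-180263438 on the minus strand, Ncstn at chr1:172066013-172082795 on the minus strand, Aph1b at chr9:66775202-66795490 on the minus strand and Adam10 at chr9:70678997-70780229 on the plus strand. Mapt lies at chr11:104231390-104332090 on the plus strand. All 9 gene identifiers of the deposited files matched this annotation, versions included.

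After filtering, 43885 nuclei remained, with 1146 to 3108 nuclei and 4383653 to 29936082 transcripts per well. Of 40769 barcode combinations, 4080 were kept in more than 1 of the 7 sublibraries and were counted as separate nuclei of the same well. Nuclei were named from marker genes, and the 4500 nuclei of 7 clusters that met no rule stayed unnamed. Among them was a cluster of 892 nuclei (median 4804.5 transcripts) whose top genes were microglial. It stayed unnamed because the oligodendrocyte list (score 0.56) came close to the microglial list (0.653). The microglial nuclei described here are a single other cluster of 1506 nuclei (median 1005.5 transcripts). The part of the unnamed cluster in the microglial results was not tested. In the marker check the summed level of the 6 microglial markers was 8734 to 13716 CPM (median 11592) in microglial nuclei of WT wells, and that of the 6 oligodendrocyte markers was 20359.7 to 25796 CPM (median 22526) in oligodendrocyte nuclei. Some rarer types held more neuronal marker counts, and the 6 neuronal markers summed to 6263, 7156 and 8163 CPM (lowest, median and highest) in endothelial, 1197, 6566 and 6809.5 CPM in pericyte and 2212, 7387 and 11289 CPM in ependymal nuclei of WT-veh wells, against 697, 849 and 996 CPM in oligodendrocyte nuclei. The part of these markers in the levels of App and Mapt in those types was not tested. Neurons that matched none of the 4 named subclasses made up 23.3% ± 5.57 of neurons in WT-veh, 24.2% ± 4.53 in WT-PMX, 28.9% ± 13.4 in Arc-veh and 28.1% ± 4.14 in Arc-PMX (SD, n = 6 wells each). The study left out 1 sample of the WT group because its expression was that of an Arctic mouse, without naming it or saying from which assay it came. All 24 wells of nuclei were kept here under their labels. Levels are counts per 1000000 transcripts (CPM) of the nuclei of a single type in a single well, so each is a share of that type's RNA.

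App was present in most cell types of the WT hippocampus and was highest in oligodendrocytes, the myelin-forming cells, not in neurons. Over the 12 WT wells its level in oligodendrocyte nuclei was 1557 ± 261 CPM (SD), and its lowest well (906 CPM) lay above the highest well of every neuron subclass (up to 701 CPM). That lowest well, WT-veh F3, held under 50 oligodendrocyte nuclei. Oligodendrocytes were followed by endothelial nuclei at 1065 ± 252 CPM (7 wells) and choroid plexus nuclei at 712 ± 63.1 CPM (6 wells). Among neurons, GABAergic interneurons held 629 ± 54.1 CPM, CA3 pyramidal neurons 575 ± 43.0 CPM, CA1 pyramidal neurons 528 ± 49.97 CPM and dentate granule neurons 356 ± 35.6 CPM. The lowest level was that of astrocytes, at 109 ± 27.5 CPM, below microglia at 275 ± 184 CPM (9 wells) and oligodendrocyte precursors (OPC) at 297 ± 55.3 CPM. CA3 was above CA1 and CA1 above dentate granule nuclei in the paired comparison within 12 wells (exact sign-flip permutation test, two-sided, adjusted p = 0.011 for each). The other neighbours in the order of App shared 3 to 9 wells and did not pass the same test (adjusted p from 0.12 to 1.0). With so few wells a pair could hardly pass, so no lack of difference is read from them.

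Both homologues were also highest in oligodendrocytes. Aplp1 stood at 293 ± 81.5 CPM there, above the next type, dentate granule nuclei, at 65.6 ± 13.9 CPM (exact sign-flip permutation test, adjusted p = 0.011, n = 12 WT wells), and at 17.6 ± 24.2 CPM in microglia. Aplp2 was spread more evenly, from 176 ± 54.0 CPM in oligodendrocytes through 127 ± 25.3 CPM in GABAergic and 62.6 ± 7.58 CPM in CA1 nuclei to 39.6 ± 45.3 CPM in microglia. No neighbours in its order passed the test. Only astrocytes against CA3 (adjusted p = 0.75, same exact test) and CA3 against OPC shared 12 wells. The other pairs shared 5 to 9 wells, with which a pair could hardly pass. Bace1 was likewise led by oligodendrocytes, at 148 ± 133 CPM, ahead of astrocytes at 37.3 ± 12.1 CPM (adjusted p = 0.011, same exact test). A shallow well, WT-veh F3, held 557 CPM of Bace1 in its oligodendrocyte nuclei, and the median of the WT-veh wells was 115 CPM.

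The γ-secretase subunits had few counts and no clear leading type. Psen2, a catalytic subunit, ranged from 7.95 ± 7.34 CPM in choroid plexus to 14.8 ± 27.4 CPM in pericyte nuclei. Ncstn, which encodes the substrate-binding subunit nicastrin, ranged from 13.4 ± 20.2 CPM in pericytes to 44.4 ± 47.6 CPM in microglia. Aph1b, a scaffold subunit, reached 22.1 ± 31.8 CPM in fibroblasts, stood at 10.3 ± 2.29 CPM in CA1 nuclei, and had 0 counts in the microglial nuclei of 9 WT wells, which allows a level of up to 12.1 CPM (3 counts over the group). Adam10, unlike Bace1, had its highest mean in microglia, with 321 ± 154 CPM in microglia, 254 ± 109 CPM in endothelial, 189 ± 43.5 CPM in oligodendrocyte and 55.3 ± 7.40 CPM in CA3 nuclei. The step from microglia to endothelial nuclei did not pass the test (unadjusted p = 0.45, exact sign-flip test, 7 shared wells). Mapt, often used as a neuronal gene, stood at 2797 ± 434 CPM in oligodendrocyte nuclei against 546 ± 138 CPM in OPC nuclei, the next in order (adjusted p = 0.011, exact test), and at 476 ± 69.0 CPM in CA3 and 61.9 ± 47.6 CPM in choroid plexus nuclei. In all, 5 of 108 neighbouring pairs over the 9 genes differed, with p-values adjusted over all pairs. Pairs that share 5 or fewer wells cannot reach an unadjusted p under 0.05 in this exact sign-flip test. Pairs that share 6 to 9 wells could hardly pass once p was adjusted over all 108 pairs. No lack of difference is read from either, so the order among the rarer types is a description. When nuclei were named singly by their highest marker score, endothelial nuclei came first for App, Aplp2, Aph1b and Adam10 and fibroblasts for Ncstn.

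**Figure D1:**
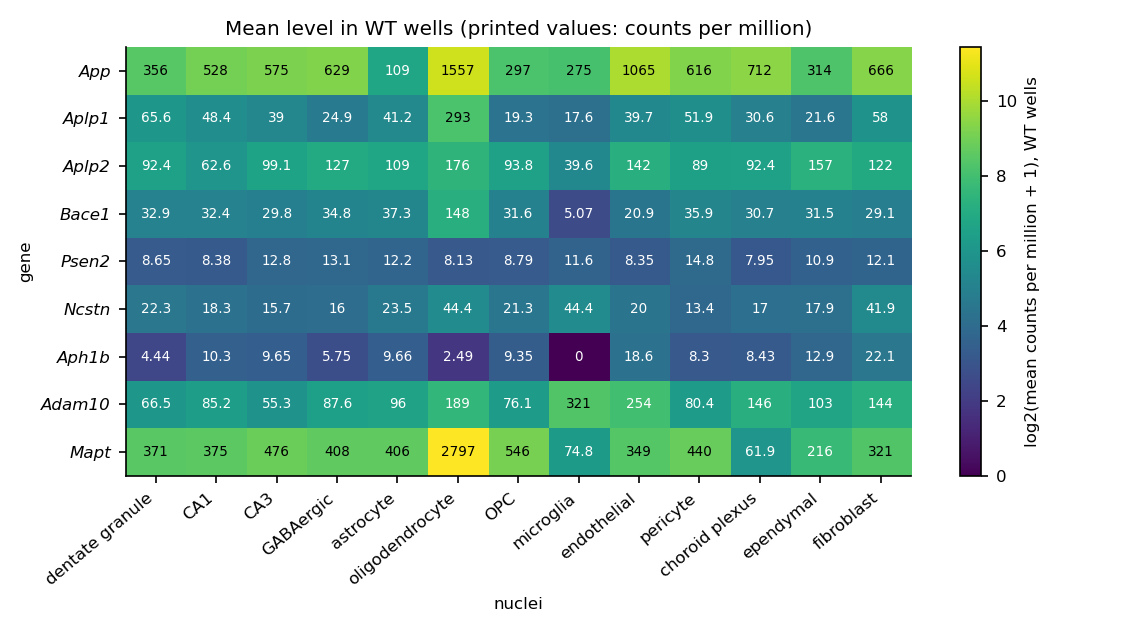
Mean level of the 9 genes (rows) in the nuclei of the 4 neuron subclasses and 9 other types (columns) over the WT wells, with the printed values in CPM and the colour on a log2 scale. Oligodendrocytes held the highest App (1557 CPM), Aplp1, Aplp2, Bace1 and Mapt, and microglia the highest Adam10 (321 CPM).

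Levels of different genes were also set against each other per length. Nuclear RNA holds introns, so the CPM of all neuronal nuclei of WT wells was divided by the gene's span. Whether counts scale with span was not tested. On that scale Aplp1 held 4.36 ± 0.910 CPM per kb (SD, n = 12 wells), Mapt 4.01 ± 0.494, App 2.26 ± 0.165 and Aplp2 1.42 ± 0.164. Among the enzymes Bace1 held 1.30 ± 0.153, Ncstn 1.12 ± 0.110, Adam10 0.784 ± 0.0669, Aph1b 0.458 ± 0.0654 and Psen2 0.285 ± 0.0586 CPM per kb.

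In Arctic mice App was higher in dentate granule, CA1 and CA3 neurons, in astrocytes and, by the largest fold, in oligodendrocytes. Compared over both treatments (12 Arctic against 12 WT wells, edgeR), App was 1.88-fold higher in oligodendrocytes, 1.53-fold in dentate granule neurons, 1.36-fold in astrocytes, 1.31-fold in CA1 and 1.19-fold in CA3 neurons. All neurons together showed a 1.26-fold rise. In GABAergic, OPC, microglial, endothelial, pericyte, choroid plexus and fibroblast nuclei App did not pass the test. Over all 9 genes and 13 types, 77 of the gene-by-type combinations had enough counts to be tested, and 7 of them were called, against 3.06% of all gene-by-type tests. Between the vehicle groups alone 6 of the 77 were called, against 1.71%. The 13 types count all neurons and their 4 subclasses separately, so a neuron enters more than a single test, and leave out ependymal nuclei, of which a single Arc-PMX well held at least 10.

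In oligodendrocyte nuclei of the WT-veh wells the lowest, median and highest App levels were 906, 1473 and 1707 CPM, and in the WT-PMX wells 1432, 1748 and 1863 CPM. Wells of Arc-veh mice held 1977, 2963 and 4191 CPM, and the Arc-PMX wells 2371, 2523 and 3249 CPM. All 12 Arctic wells lay above all 12 WT wells, the lowest Arctic well at 1977 CPM and the highest WT well at 1863 CPM. The difference between the genotypes was 0.91 ± 0.10 on the log2 scale (SE, adjusted p = 4.1e-09), in a type in which 4.96% of all genes were called, and between the vehicle groups 1.15 ± 0.14 on the log2 scale (SE, adjusted p = 4.2e-07), where 2.12% were called. The wells WT-veh F3 and WT-veh M3 held under 50 oligodendrocyte nuclei, and without them, an alternative chosen after the data were seen, the genotype difference was 0.87 ± 0.09 (adjusted p = 1.2e-08). The summed level of 6 neuronal markers in oligodendrocyte nuclei was 409 to 1211 CPM (median 859) in WT and 437 to 1483 CPM (median 593) in Arctic wells. The genotypes overlapped widely in it, with the lower median and the highest well both on the Arctic side. The 5 OPC markers moved with App, from 0 to 209 CPM (median 50.7) in WT to 76.1 to 323 CPM (median 213) in Arctic oligodendrocyte nuclei, and their part in the result was not tested.

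In dentate granule nuclei of the WT-veh wells the lowest, median and highest App levels were 274, 343 and 364 CPM, and in the WT-PMX wells 349.8, 372 and 425 CPM. Among Arctic wells, those of Arc-veh held 442, 503 and 777 CPM, and the Arc-PMX wells 424, 561 and 655 CPM. In dentate granule neurons, 11 of 12 Arctic wells lay above all WT wells, and the other, at 424 CPM, stood beside the highest WT well at 425 CPM. The difference was 0.61 ± 0.08 on the log2 scale (SE, adjusted p = 3.4e-06) between the genotypes and 0.69 ± 0.11 on the log2 scale (SE, adjusted p = 4.6e-04) between the vehicle groups, where 1.57% and 0.28% of all genes were called. The highest well was Arc-veh F3, which also held the highest App of all wells in oligodendrocytes, CA1, CA3 and astrocytes.

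In CA1 nuclei of the WT-veh wells the lowest, median and highest App levels were 457, 495 and 542 CPM, and in the WT-PMX wells 509, 554 and 628 CPM. The Arc-veh wells held 610.1, 655 and 856 CPM, and the Arc-PMX wells 565, 708 and 747 CPM. The pyramidal neurons overlapped slightly more, with 10 of 12 Arctic wells above all WT wells in CA1 and 7 of 12 in CA3. In CA1 the difference was 0.39 ± 0.06 on the log2 scale (SE, adjusted p = 0.0020) between the genotypes, where 0.144% of genes were called, and 0.47 ± 0.08 on the log2 scale (SE, adjusted p = 0.030) between the vehicle groups, where 0.0768% were called. Leaving out any 1 of WT-veh F1, WT-veh M1, WT-veh M3, Arc-veh F3, Arc-veh M1 or Arc-veh M3 ended the vehicle call, with differences from 0.40 to 0.48, while the genotype call held without any 1 well. With nuclei named singly the vehicle difference was 0.41 (adjusted p = 0.074), which also ended that call.

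In CA3 nuclei of the WT-veh wells the lowest, median and highest App levels were 498, 547 and 578 CPM, and in the WT-PMX wells 555, 608 and 647 CPM. Wells of Arc-veh mice held 618, 685 and 829.4 CPM, and the Arc-PMX wells 624.9, 652 and 715 CPM. All 6 Arc-veh wells were above all 6 WT-veh wells in CA3, where the lowest Arc-veh well stood at 618 CPM and the highest WT-veh well at 578 CPM. The difference was 0.25 ± 0.05 on the log2 scale (SE, adjusted p = 0.012) between the genotypes (0.426% of genes called) and 0.35 ± 0.07 on the log2 scale (SE, adjusted p = 0.025) between the vehicle groups (0.166% called). With no filter on low counts both calls were lost, at 0.24 (adjusted p = 0.14) and 0.34 (adjusted p = 0.16). The vehicle call was also lost without any 1 of WT-veh F1, WT-veh F3, WT-veh M1, WT-veh M3, Arc-veh F2, Arc-veh F3, Arc-veh M1 or Arc-veh M3, at 0.30 to 0.36.

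In GABAergic nuclei of the WT-veh wells the lowest, median and highest App levels were 573, 608 and 701 CPM, and in the WT-PMX wells 529, 655 and 694 CPM. Among Arctic wells, those of Arc-veh held 620.2, 693 and 736 CPM, and the Arc-PMX wells 576, 646 and 674 CPM. The genotypes overlapped in these interneurons, and 3 of 12 Arctic wells exceeded all WT wells. Of all genes, 0.0113% were called there between the genotypes. The difference was 0.08 ± 0.06 on the log2 scale (SE, adjusted p = 1.0). Over all neuronal nuclei the difference was 0.34 ± 0.05 on the log2 scale (SE, adjusted p = 8.8e-04) between the genotypes, with 0.18% of genes called, and 0.40 ± 0.07 on the log2 scale (SE, adjusted p = 0.020) between the vehicle groups, with 0.0668% called. That vehicle call was lost without WT-veh F1, WT-veh F2, Arc-veh F3 or Arc-veh M3 (differences from 0.34 to 0.39).

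In astrocyte nuclei of the WT-veh wells the lowest, median and highest App levels were 72.5, 115 and 168 CPM, and in the WT-PMX wells 71.5, 109 and 121 CPM. The Arc-veh wells held 87.6, 158 and 231 CPM, and the Arc-PMX wells 119, 150.2 and 189.9 CPM. Astrocyte levels overlapped widely, and 4 of 12 Arctic wells were above all WT wells. The difference was 0.44 ± 0.12 on the log2 scale (SE, adjusted p = 0.0078) between the genotypes and 0.41 ± 0.18 on the log2 scale (SE, adjusted p = 0.15) between the vehicle groups, so that the call rested on both treatments together, where 20.1% and 12.6% of all genes were called. The 6 neuronal markers summed to 767 to 1160.2 CPM (median 988) in WT and 533 to 1051 CPM (median 661) in Arctic astrocyte nuclei, so their median was lower where App was higher. Markers of ependymal cells, microglia, pericytes and OPC moved the same way as App in astrocyte nuclei. The 5 ependymal markers summed to 21.03 to 62.6 CPM (median 43.1) in WT and 77.3 to 147 CPM (median 109.7) in Arctic wells, and the 6 microglial markers to 39.6 to 110.3 CPM (median 57.0) and 78.8 to 161 CPM (median 98.6). The 6 pericyte markers summed to 200.5 to 344 CPM (median 253) in WT and 313 to 493.4 CPM (median 385) in Arctic wells, with Kcnj8 at 0 in both, and the 5 OPC markers to 53.9 to 156 CPM (median 101) and 101 to 251 CPM (median 141). Their part in the result was not tested.

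App in the remaining types gave no call. In OPC nuclei the level was 297 ± 55.3 CPM (SD, n = 12) in WT and 342 ± 67.9 CPM (SD, n = 12) in Arctic wells, with a difference of 0.25 ± 0.12 on the log2 scale (SE, adjusted p = 0.41), where 2.51% of all genes were called and 1.08% between the vehicle groups. Microglial nuclei held 275 ± 184 CPM (SD, n = 9) and 251 ± 45.9 CPM (SD, n = 12), a difference of 0.04 ± 0.24 on the log2 scale (SE, adjusted p = 0.94). Of all genes in microglia, 19.8% were called between the genotypes and 11.7% between the vehicle groups. Endothelial nuclei held 1065 ± 252 CPM (SD, n = 7) and 1282 ± 321 CPM (SD, n = 10), a difference of 0.30 ± 0.25 on the log2 scale (SE, adjusted p = 1.0). Pericytes, choroid plexus and fibroblasts reached 10 nuclei in few wells, and the differences were 0.03 ± 0.40 in pericyte, 0.14 ± 0.14 in choroid plexus and 0.14 ± 0.29 in fibroblast nuclei on the log2 scale (SE), with adjusted p of 0.99, 0.99 and 0.92. In pericytes the median gene itself differed by -0.13, so App stood 0.16 above it. In endothelial, pericyte, choroid plexus and fibroblast nuclei 0% of all genes were called between the genotypes. No lack of a difference in App is read from the missing calls there.

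**Figure D2:**
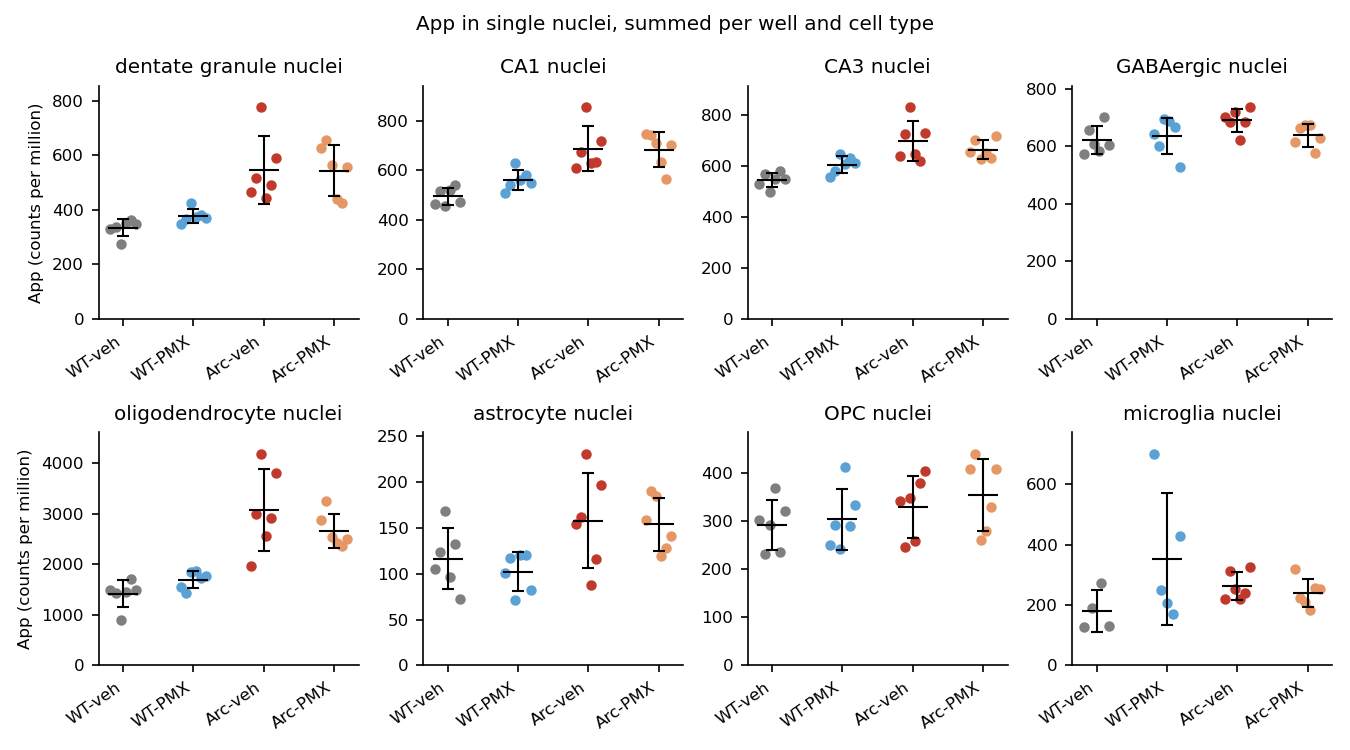
App in CPM (vertical axes, starting at 0) in the nuclei of 8 cell types, 1 point per well and mouse, for the 4 groups, with bars at the mean and whiskers of 1 SD. All Arctic wells lay above all WT wells in oligodendrocytes, and 11 of 12 did in dentate granule neurons, whereas the groups overlapped in GABAergic, OPC and microglial nuclei.

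The size of the App difference itself differed between cell types. For each well the log2 CPM of App in one type was subtracted from that in another (prior count of 2), and these values were compared between the Arctic and WT wells that held both types by a permutation test (two-sided, 100000 resamples or exact). Astrocytes, oligodendrocytes and OPC had 12 wells of each genotype, but microglia had 12 Arctic and 9 WT wells, endothelial nuclei 10 and 7, pericytes 8 and 5, ependymal nuclei 4 and 9, and choroid plexus and fibroblasts 6 and 6. Neurons minus oligodendrocytes stood at -1.61 in WT and -2.14 in Arctic wells, a change of -0.54, so that App rose more in oligodendrocytes (adjusted p = 1.8e-04). Neurons minus choroid plexus changed by 0.33 (adjusted p = 0.0097, exact, 6 against 6 wells). Of these 9 pairs, adjusted together, the other 7 did not pass the test, among them astrocytes at -0.16 (adjusted p = 0.35) and OPC at 0.15 (adjusted p = 0.35).

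The neuron subclasses, compared in the same way in 7 pairs (adjusted together, and counting oligodendrocytes against dentate granule neurons) that were added after the data were seen, also differed from each other. The App rise in dentate granule neurons exceeded that in CA1 by 0.22, that in CA3 by 0.36 and that in GABAergic neurons by 0.52 on the log2 scale (adjusted p = 4.7e-05 for each, permutation test, whose unadjusted p of 2e-05 is the smallest that 100000 resamples give). CA1 exceeded CA3 by 0.13 (adjusted p = 6.2e-04) and GABAergic neurons by 0.29 (adjusted p = 2.8e-04), and CA3 exceeded GABAergic neurons by 0.16 (adjusted p = 0.0059). The rise in oligodendrocytes exceeded that in dentate granule neurons by 0.27 (adjusted p = 0.0010). Among the neuron subclasses the rise thus ran from dentate granule through CA1 and CA3 to GABAergic nuclei, the reverse of the order of WT levels, where GABAergic nuclei held most App and dentate granule nuclei least. A rise on the log2 scale is relative to the WT level, so these orders are not independent. Oligodendrocytes, with the highest WT level, also had the largest rise.

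Within neurons App rose relative to its homologues. These ratios use the same App counts as the fit above, so they are not independent of it. The log2 ratio of App to Aplp2 counts ranged from 2.34 to 2.91 in WT wells and from 2.58 to 3.26 in Arctic wells, with means of 2.52 ± 0.16 and 2.88 ± 0.18 (SD, n = 12 each). The ratios overlapped, and the mean difference of 0.36 passed the test (p = 8.0e-05, two-sided permutation test with 100000 resamples). The log2 ratio of App to Aplp1 was 3.49 ± 0.24 in WT and 3.80 ± 0.27 in Arctic wells, a difference of 0.32 (p = 0.0067, the same permutation test). A ratio within a well does not depend on its scaling, and neither homologue was called in neurons, where Aplp1 differed by 0.03 ± 0.10 and Aplp2 by -0.03 ± 0.06 on the log2 scale (SE).

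Mice with more App in one cell type tended to have more in others. Across the 12 Arctic wells App in dentate granule neurons was related to App in CA1 neurons (Pearson r = 0.98 and rho = 0.97, with adjusted permutation p of 1.3e-04 and 1.3e-04), in astrocytes (r = 0.86 and rho = 0.83, with adjusted permutation p of 7.5e-04 and 0.0033) and in oligodendrocytes (r = 0.80 and rho = 0.76, with adjusted permutation p of 0.0059 and 0.0094). Without the 2 wells farthest from the median, Arc-veh F3 and Arc-PMX F2, r was 0.96, 0.72 and 0.57. Within the vehicle and the PMX205 wells (n = 6 each) r was 0.99 and 0.95 for CA1, 0.88 and 0.83 for astrocytes, and 0.88 and 0.86 for oligodendrocytes. For CA3 the relation (r = 0.76 and rho = 0.59, with adjusted permutation p of 0.014 and 0.071) fell to r = 0.43 without the same 2 wells and so rests on them, and for GABAergic neurons it did not pass the test (r = 0.38 and rho = 0.33, with adjusted permutation p of 0.21 and 0.31).

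The 12 WT wells, which carry no transgene, showed relations of the same kind between dentate granule neurons and CA1 (r = 0.90 and rho = 0.97, with adjusted permutation p of 1.3e-04 and 1.3e-04), CA3 (r = 0.92 and rho = 0.93, with adjusted permutation p of 1.3e-04 and 1.3e-04) and oligodendrocytes (r = 0.89 and rho = 0.76, with adjusted permutation p of 0.0011 and 0.0094). For oligodendrocytes r was 0.72 without WT-veh F3 and WT-PMX F3, the farthest wells. Astrocytes went the other way in WT wells (r = -0.64 and rho = -0.32, with adjusted permutation p of 0.046 and 0.31), and without the same wells r was 0.23, so that relation rests on them. GABAergic neurons did not pass the test in WT wells (r = 0.39 and rho = 0.39, with adjusted permutation p of 0.21 and 0.26). These are 10 relations in all, adjusted together, and the types of a well share its mouse, its nuclei preparation and its barcoding.

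**Figure D3:**
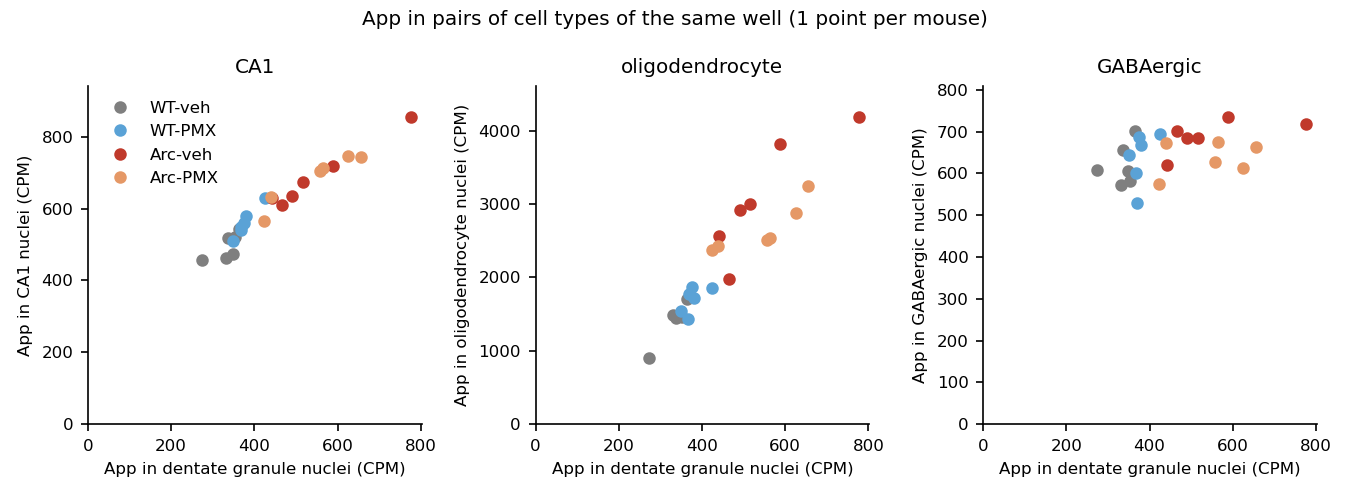
App in dentate granule nuclei (horizontal axes, CPM) against App in CA1, oligodendrocyte and GABAergic nuclei of the same well (vertical axes, CPM), 1 point per mouse, coloured by group. Arctic wells lie along a rising line for CA1 (r = 0.98) and oligodendrocytes (r = 0.80) and scatter for GABAergic nuclei (r = 0.38).

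Of the other genes, Aplp2 in microglia was the single call. Outside App, 64 gene-by-type combinations were tested between the genotypes and 1 was called, against 3.06% of all gene-by-type tests, so the count was no higher than the background. The homologues had no call in the neuron subclasses, astrocytes or oligodendrocytes, where the share of all genes called ran from 0.0113% in GABAergic to 1.57% in dentate granule neurons and was 20.1% in astrocytes and 4.96% in oligodendrocytes, and nothing particular to the homologues is read from so few tests. In oligodendrocytes Aplp2 differed by -0.31 ± 0.14 on the log2 scale (SE, adjusted p = 0.25) and Aplp1 by 0.04 ± 0.14 on the log2 scale (SE, adjusted p = 0.94). In dentate granule neurons Aplp2 differed by -0.16 ± 0.07 on the log2 scale (SE, adjusted p = 0.35). Neither Aplp2 difference passed the adjusted threshold, although both were below an unadjusted p of 0.05.

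Aplp2 in microglial nuclei was higher in Arctic than in WT wells, from very few WT counts. The 4 WT-veh wells with at least 10 microglial nuclei held 0, 0, 30.4 and 63.8 CPM, from 2 counts in all, and the 5 WT-PMX wells 0, 0, 51.7, 85.2 and 125 CPM, from 7 counts. The Arc-veh wells held 116, 147, 158, 175, 183 and 191 CPM, and the Arc-PMX wells 63.8, 104, 175, 189.8, 206 and 229 CPM. Every Arc-veh well was above every WT-veh well, while over both treatments the genotypes overlapped, since the lowest Arctic wells fell below the highest WT-PMX well, which held 1 count. The pooled rates of 146 counts in Arc-veh and 2 in WT-veh gave a ratio of 8.74 with an exact 95% interval from 2.38 to 72.9, and those of 278 counts in Arctic and 9 in WT wells a ratio of 4.62 (2.40 to 10.2), both for counting error only.

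The fitted difference for Aplp2 was 2.49 ± 0.45 on the log2 scale (SE, adjusted p = 4.8e-05) between the genotypes and 3.13 ± 0.75 on the log2 scale (SE, adjusted p = 0.0030) between the vehicle groups. With wells near 0 the fitted size depends on the model and is no measure of the fold. Many genes differed in these nuclei: 19.8% and 11.7% of all genes were called in these comparisons. With nuclei named singly rather than by cluster the difference was 0.90 between the vehicle groups (adjusted p = 0.10), which ended that call, and 0.92 (adjusted p = 0.0054) between the genotypes, which remained called at a smaller size. Without the 3 wells of under 20 microglial nuclei, an alternative chosen after the data were seen, the values were 2.34 ± 0.47 (adjusted p = 2.7e-04) and 2.88 ± 0.76 (adjusted p = 0.011). Endothelial markers in the microglial nuclei moved with Aplp2: their 6 genes summed to 0 to 213 CPM (median 69.0) in WT and 189.8 to 500.4 CPM (median 303) in Arctic wells, as did the 5 OPC markers, at 0 to 65.3 CPM (median 0) and 39.3 to 196 CPM (median 78.7). The 5 ependymal markers summed to 0 to 17.2 CPM (median 0) in WT wells, with Cfap299, Cfap43, Cfap54 and Dnah12 at 0, and to 10.6 to 65.4 CPM (median 39.0) in Arctic wells. The 5 T cell markers were all at 0 in WT wells and summed to 0 to 58.5 CPM (median 7.36) in Arctic wells. The part of these markers in the result was not tested. In WT microglial nuclei 3 of the 6 endothelial markers had counts, with Adgrl4, Cldn5 and Mecom at 0. The depth moved too, since the WT-veh and WT-PMX wells used held 130 and 121 microglial nuclei in all against 690 and 553 in Arc-veh and Arc-PMX. The neuronal markers summed to 268 to 4904 CPM (median 1277) and 425 to 1824 CPM (median 731).

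**Figure D4:**
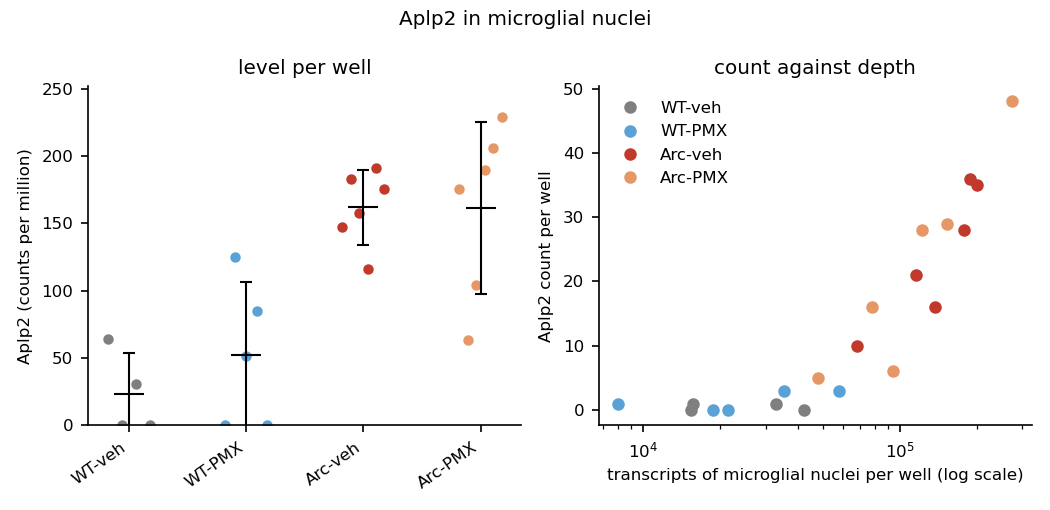
Left, Aplp2 in microglial nuclei in CPM, 1 point per well, with the mean and whiskers of 1 SD for the 4 groups. Right, the Aplp2 count of each well against the transcripts of its microglial nuclei (log scale): all WT wells held at most 3 counts and 11 of 12 Arctic wells were deeper than every WT well.

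Among the secretases, Bace1 in astrocytes came closest to a call. Its lowest, median and highest levels were 35.4, 36.9 and 69.3 CPM in WT-veh and 22.9, 29.8 and 49.2 CPM in WT-PMX astrocytes. The Arc-veh wells held 14.2, 26.3 and 34.9 CPM and the Arc-PMX wells 19.1, 25.5 and 49.8 CPM. All 6 WT-veh wells were above all 6 Arc-veh wells, but by little, and the groups with PMX205 overlapped. The difference was -0.45 ± 0.18 on the log2 scale (SE, adjusted p = 0.071) between the genotypes and -0.68 ± 0.26 on the log2 scale (SE, adjusted p = 0.078) between the vehicle groups. Of all genes in astrocytes, 20.1% and 12.6% were called in these comparisons. The neuronal markers had a lower median in Arctic (661 CPM) than in WT astrocytes (988 CPM), and their part in the Bace1 difference was not tested. Among the alternatives of processing Bace1 passed the threshold only when nuclei were named singly (adjusted p = 0.048 and 0.044). With a well left out, the genotype comparison called 7 to 8 gene-by-type combinations, and the genes of the added calls are not given here.

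In all neurons together the secretase genes stayed close to their WT levels. Over all neuronal nuclei, Bace1 was 33.7 ± 3.94 CPM (SD, n = 12) in WT and 34.8 ± 5.75 CPM (SD, n = 12) in Arctic wells, and Adam10 79.4 ± 6.77 CPM (SD, n = 12) and 77.4 ± 11.2 CPM (SD, n = 12). The differences were 0.04 ± 0.07 for Bace1, -0.03 ± 0.08 for Adam10, -0.04 ± 0.10 for Psen2, 0.06 ± 0.07 for Ncstn and -0.06 ± 0.10 for Aph1b on the log2 scale (SE, adjusted p of 0.89 or more). Each of these 5 differences was smaller than its standard error. In single subclasses, where none was called, they were wider and ran both ways, from -0.30 (Psen2, GABAergic) to 0.21 (Aph1b, dentate granule). Of all genes, 0.18% were called in neurons and 0.0113% to 1.57% in the subclasses. Nothing particular to the secretase genes is therefore read from the missing calls. In microglia, where Adam10 was highest, it was 321 ± 154 CPM (SD, n = 9) in WT and 229 ± 57.4 CPM (SD, n = 12) in Arctic nuclei, a difference of -0.45 ± 0.22 on the log2 scale (SE, adjusted p = 0.17), where 19.8% of all genes were called.

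Mapt was 404 ± 49.8 CPM (SD, n = 12) in WT and 387 ± 56.5 CPM (SD, n = 12) in Arctic neurons, a difference of -0.06 ± 0.08 on the log2 scale (SE, adjusted p = 0.91). In oligodendrocytes, its highest type, the lowest, median and highest levels were 2159.7, 2925 and 3632 CPM in WT-veh and 2662, 2939.8 and 3696 CPM in Arc-veh wells, which overlapped, and the genotype difference was 0.16 ± 0.09 on the log2 scale (SE, adjusted p = 0.38). Between the genotypes the widest estimate for Mapt was in fibroblast nuclei, at -1.58 ± 0.62 on the log2 scale (SE, adjusted p = 0.44), from 6 wells of each genotype.

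**Figure D5:**
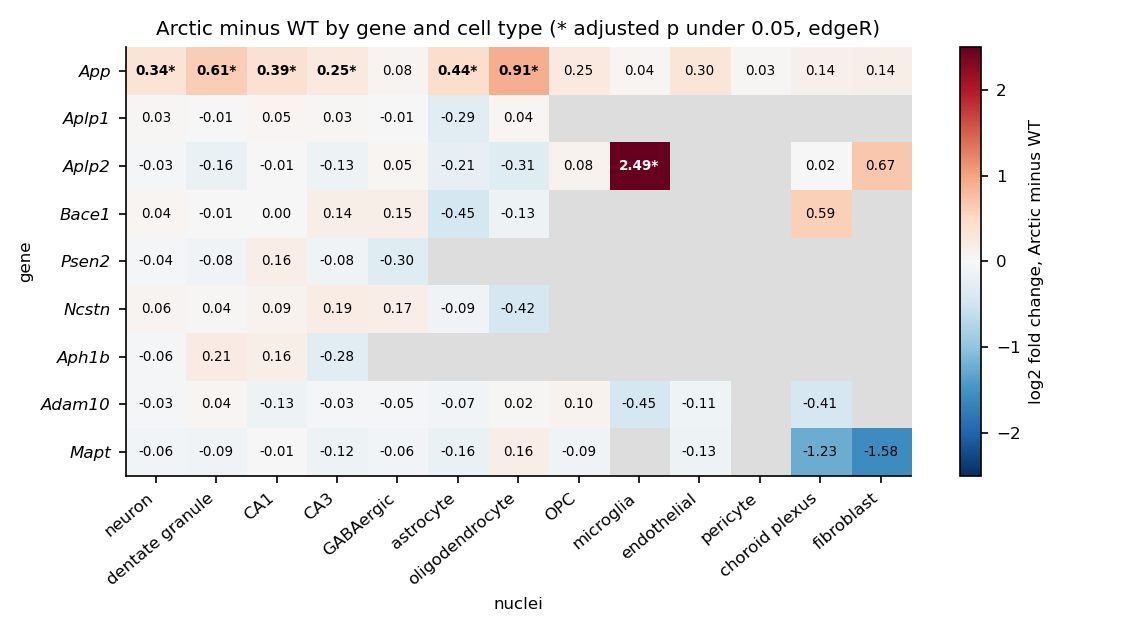
Log2 fold change of Arctic minus WT for the 9 genes (rows) in 13 types of nuclei (columns), with the value printed in each cell, an asterisk where the edgeR adjusted p was under 0.05, and grey where counts were too low to test. App carried 6 of the 7 asterisks and Aplp2 in microglia (2.49) the other.

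PMX205 gave no call for any of the 9 genes. In Arctic mice 0 of 77 combinations were called by edgeR, against 0.0062% of all tests. In WT mice 0 were called, and 0 for the difference between the effects, where 0% and 0% of all tests were called. An unadjusted p under 0.05 was found for 3, 4 and 3 of the 77 combinations in these comparisons. Among all genes in neurons 295, 494 and 454 of 14974 had one, and nothing is read from these counts. DESeq2 also called 0 in each of these 3 comparisons. The count in WT mice was 1 when the number of each mouse within its sex was added as a block, which called Mapt in choroid plexus nuclei (-3.06, adjusted p = 0.0024) a type in which 2 WT-PMX wells entered. For App in Arctic mice the change with PMX205 was -0.04 ± 0.07 in neurons, -0.01 ± 0.11 in dentate granule, -0.01 ± 0.08 in CA1, -0.07 ± 0.07 in CA3, -0.05 ± 0.16 in astrocyte and -0.22 ± 0.13 in oligodendrocyte nuclei on the log2 scale (SE).

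App in oligodendrocytes had the smallest unadjusted p of the 9 genes for a difference between the effects, since the change was -0.22 ± 0.13 in Arctic and 0.26 ± 0.14 in WT mice, a difference of -0.48 ± 0.20 on the log2 scale (SE, adjusted p = 1.0). Without the wells WT-veh F3 and WT-veh M3, which held under 50 oligodendrocyte nuclei, the change in WT mice was 0.15 ± 0.14 and the difference -0.37 ± 0.18 (SE, adjusted p = 1.0). Aplp1 in WT mice was higher in PMX205 than in vehicle wells by 0.46 ± 0.16 in CA1, 0.38 ± 0.16 in CA3 and 0.45 ± 0.21 in oligodendrocyte nuclei. Of all genes in that comparison, 430 of 10410 in CA1, 286 of 9616 in CA3 and 184 of 4762 in oligodendrocytes had an unadjusted p under 0.05. For the 9 genes it was 4 of 77 combinations. In neurons of WT-veh wells Aplp1 lay at 28.1, 42.7 and 44.5 CPM (lowest, median and highest) and in WT-PMX wells at 41.5, 52.4 and 62.4 CPM, and the groups overlapped. After adjustment over all genes these Aplp1 values all had p of 1.0.

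A wider list of 38 genes that act with App and tau, drawn up with results of these data known, held adaptors and sorting receptors, other secretases and γ-secretase subunits, amyloid-β-degrading enzymes, and partners of tau. Between the genotypes, 7 of 290 gene-by-type tests rose and 4 fell, a share near the background of 3.06%, and between the vehicle groups 1 rose and 1 fell, where 1.71% of all tests were called. The largest was Apbb2, an adaptor that binds the tail of App, in microglia. Its lowest, median and highest levels were 187, 284 and 511 CPM in 9 WT wells and 1073, 1311 and 1626 CPM in 12 Arctic wells, which did not overlap, and it rose by 2.30 ± 0.16 on the log2 scale (SE, adjusted p = 5.7e-14). With nuclei named singly the rise was 1.62 (adjusted p = 5.8e-09). The endothelial, OPC and ependymal markers given above for Aplp2 moved the same way in these nuclei, with medians from 69.0 to 303, 0 to 78.7 and 0 to 39.0 CPM from WT to Arctic wells, and their part in the rise of Apbb2 was not tested. Sort1, a sorting receptor, fell in the same nuclei, with a difference of -0.71 ± 0.23 on the log2 scale (SE, adjusted p = 0.027), a call that ended without WT-veh F2, WT-veh M1 or WT-PMX M3 (values from -0.73 to -0.45) and with no filter on low counts, at -0.34 (adjusted p = 0.62). The neuronal markers also had a lower median in Arctic (731 CPM) than in WT microglial nuclei (1277 CPM), and their part in the fall of Sort1 was not tested. In microglia 1 of the list's 12 tested genes rose and 1 fell between the genotypes. There 19.8% of all genes were called, so the list's share lay near the background.

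In astrocytes 3 of the list's 26 tested genes rose and 3 fell, where 20.1% of all genes were called, so the list's share lay near the background. Mmp14, a membrane metalloprotease that can cut App, fell in them: it lay at 29.4, 55.0 and 75.7 CPM in WT and 9.93, 29.2 and 53.5 CPM in Arctic wells, and the difference was -0.92 ± 0.19 on the log2 scale (SE, adjusted p = 2.1e-04). Rtn4, which encodes the Bace1-binding protein Nogo, rose by 0.51 ± 0.12 on the log2 scale (SE, adjusted p = 0.0011), Sorl1, a sorting receptor for App, by 0.29 ± 0.09 on the log2 scale (SE, adjusted p = 0.025), and Ece2, an enzyme that can degrade amyloid-β, by 0.61 ± 0.22 on the log2 scale (SE, adjusted p = 0.042). Map2, a microtubule-binding relative of tau, and Gsk3b, a tau kinase, also fell, with differences of -0.29 ± 0.08 on the log2 scale (SE, adjusted p = 0.0078) and -0.24 ± 0.09 on the log2 scale (SE, adjusted p = 0.039). Map2 is also a neuronal gene, and the neuronal markers had a lower median in Arctic (661 CPM) than in WT astrocytes (988 CPM), whose part in its fall was not tested. Markers of ependymal cells, microglia, pericytes and OPC had higher medians in Arctic than in WT astrocytes, as given above for App. Their part in the rises of Rtn4, Sorl1 and Ece2 was not tested. The calls of Ece2 and Gsk3b ended when any 1 of 17 and 13 of the 24 wells was left out (values down to 0.53 and up to -0.21). With no filter on low counts Ece2 stood at 0.61 (adjusted p = 0.060) and Gsk3b at -0.23 (adjusted p = 0.18). The call of Ece2 was also lost in nuclei over 500 transcripts and genes, at 0.56 (adjusted p = 0.065), and that of Gsk3b with relative log expression size factors, at -0.23 (adjusted p = 0.053), and with DESeq2, at -0.22 (adjusted p = 0.05001). The call of Sorl1 ended without WT-veh M2, WT-PMX F2 or Arc-veh M3 (from 0.24 to 0.26).

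In oligodendrocytes Sorl1 rose by 0.60 ± 0.17 on the log2 scale (SE, adjusted p = 0.022) and Tmed10, a transport protein that also modulates γ-secretase, by 0.74 ± 0.18 on the log2 scale (SE, adjusted p = 0.0091), beside the rise of App in the same nuclei. The OPC markers rose there too, from a median of 50.7 CPM in WT to 213 CPM in Arctic wells, and their part in these rises was not tested. In oligodendrocytes 2 of the list's 21 tested genes rose and 0 fell, where 4.96% of all genes were called. Tmed10 lay at 0, 56.4 and 194 CPM in WT and 56.7, 96.9 and 140.5 CPM in Arctic wells (lowest, median and highest), which overlapped, and the highest well of all was a WT-veh well. Sorl1 there lay at 48.4, 100.2 and 209 CPM in WT and 86.1, 165 and 229.7 CPM in Arctic wells (lowest, median and highest), which overlapped, and without WT-veh F2 or WT-veh M1 its call ended (0.55 and 0.57). It also ended in nuclei over 500 transcripts and genes, at 0.51 (adjusted p = 0.10), and with nuclei named singly, at 0.48 (adjusted p = 0.13). In OPC nuclei Fyn, a kinase that binds tau, rose by 0.41 ± 0.12 on the log2 scale (SE, adjusted p = 0.048). Fyn was the only call among the list's 15 tests there, where 2.51% of all genes were called. Its lowest, median and highest levels were 411, 544 and 672 CPM in WT-veh, 559.6, 939.6 and 1049 CPM in WT-PMX, 636, 809.7 and 1036 CPM in Arc-veh and 578, 1019 and 1344 CPM in Arc-PMX wells, so the WT-PMX median lay above that of Arc-veh and the WT-veh wells were the low group. That call was lost with nuclei named singly, at 0.01 (adjusted p = 1.0), with no sex term (adjusted p = 0.052), with doublets kept (adjusted p = 0.060), in nuclei over 500 transcripts and genes (adjusted p = 0.053) and with the replicate block (adjusted p = 0.057). It was also lost without any 1 of 13 of the 24 wells, with values from 0.35 to 0.42. In neurons and their subclasses 0 of the list's tests were called by edgeR between the genotypes (36 tests in all neurons and 33 or 34 in each subclass), where 0.18% of all genes were called in neurons and 0.0113% to 1.57% in the subclasses, so the list did not stand apart from the background. Of these tests, 12 had an unadjusted p under 0.05. Among all genes 1061 of 14974 had one in neurons and 1146 of 10351 in dentate granule neurons. The counts were 813 of 10410 in CA1, 655 of 9616 in CA3 and 439 of 8862 in GABAergic neurons.

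The genes whose WT levels over the 13 types were most like those of App were Shtn1 (r = 0.91), Ttll7 (r = 0.86), Prkcz (r = 0.85), Srcin1 (r = 0.82) and Myo1d (r = 0.80), among 14591 genes that reached 10 CPM in at least 1 type. The measure is Pearson's r over the 13 mean log2 CPM values, which share the same wells, and it is a description.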

How the data were processed

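Single-nucleus RNA of mouse hippocampus was counted by the authors against mm10 with Parse's split-pipe (version not given in the sources used here), and the deposited values are transcript counts per barcode and gene, unfiltered and not normalized. Wells were assigned to groups from the deposited well sheet, and no well was left out or relabelled. Nuclei with more than 300 and fewer than 50000 transcripts, more than 400 genes and under 1% mitochondrial counts were kept. Scrublet (rate 0.06, score over 0.25) removed 1253 of 45138 nuclei as doublets.

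The 43885 nuclei were clustered with scanpy 1.11.5 (2000 variable genes, 30 principal components, 15 neighbours, Leiden resolution 1.5), which gave 41 clusters, of which 34 were named from marker lists. The score of 0.5 for a neuron subclass was set after the clusters were seen. Counts were summed per well and type (at least 10 nuclei) and tested with edgeR 4.0.16 (TMM, quasi-likelihood, sex as covariate, p adjusted by Benjamini-Hochberg over all genes of a type, called under 0.05) in R 4.3.3. Levels between types and ratios were compared by permutation in scipy 1.17.1. The edgeR step was tested on simulated data. DESeq2 1.42.0 and the other alternatives tried are given in the closing section.

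The genes were taken by name with no threshold on a measured value, but they and the lists were chosen with earlier results of these data known. All 9 genes are named in every type, genes of the wider list only where called, and the 5 genes most like App by correlation. Wells are separate mice, and their number limits the precision. Intervals and floors cover counting error only. Whole wells held 4383653 to 29936082 transcripts, but a level rests on the nuclei of its own type, and summed per type and group these held from 88616 (pericytes, WT-veh) to 68821450 transcripts (neurons, WT-PMX) in the tested types.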

Additional observations from a re-analysis of the deposited data

Results flagged for a closer look

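App in the well WT-veh F3 stood apart from the 5 other WT-veh wells, at 274 CPM in dentate granule and 906 CPM in oligodendrocyte nuclei. These are 2 of 49 groups of wells tested in this way, and chance alone sets apart about 1 in 20. Without that well the vehicle difference of App was 0.64 in dentate granule and 1.08 in oligodendrocyte nuclei on the log2 scale, and both remained called. WT-veh F3 held under 50 oligodendrocyte nuclei, so its level there rests on few counts.

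The genotype difference of App was not the same size in all types, by a test of the difference itself. Neurons against oligodendrocytes gave -0.54 and neurons against choroid plexus 0.33 on the log2 scale. Dentate granule neurons exceeded CA1 by 0.22, CA3 by 0.36 and GABAergic neurons by 0.52. CA1 exceeded CA3 by 0.13 and GABAergic neurons by 0.29, CA3 exceeded GABAergic neurons by 0.16, and oligodendrocytes exceeded dentate granule neurons by 0.27. Human and mouse App reads were counted together, so the transgene's share in each type cannot be told apart from that of the mouse gene.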

How the results depend on the processing

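The alternatives were other size factors, DESeq2, no filter on low counts, no sex term, doublets kept, nuclei over 500 transcripts and 500 genes, nuclei named singly, a replicate block, and each well left out. A difference was kept if it held its direction and side of the threshold, and a count of calls if it stayed within 1.5 times. Of the values that answer a comparison, 296 were kept and 5 changed by more than 1.5 times. A kept count can hold calls lost or gained. Under the alternatives of processing the genotype comparison called 6 to 9 gene-by-type combinations, against 7 in the main fit. Of the values for single genes and for counts over all genes, 1459 were kept in the same sense, 86 lost the threshold, 20 changed sign and 23 changed by more than 1.5 times. Those that lost it stand beside each gene. The vehicle comparison called 3 to 6 gene-by-type combinations with a well left out, the lowest count without WT-veh F1, Arc-veh F3 or Arc-veh M3. The WT comparison of PMX205 gave 1 call with the replicate block, and 10 neighbouring pairs of types differed in the Arctic wells in place of 5 in WT wells. The cause was not tested.

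Uncalled App differences changed sign near 0. In microglia App was -0.0147 with doublets kept, -0.0999 in nuclei over 500 transcripts and genes and -3.56e-04 with the block. In pericytes it was -0.0644 with relative log expression size factors, -0.0560 with DESeq2, -0.0354 with no filter, -0.128 with no sex term and -0.187 with nuclei named singly. With a well left out it ran from -0.0614 to 0.272 in microglia, -0.142 to 0.349 in pericytes and -0.0748 to 0.384 in fibroblasts, and the neuron-against-pericyte difference from -0.0012 to 0.37. Same-numbered wells of a sex were correlated with r from -0.26 to 0.71 in neurons (median 0.25, over 0.1 in 25 of 36 pairs), and 11 of 24 wells were closest to their own number. Wells of other numbers had a median of -0.03, so equal numbers deviated together in many pairs but not in all, a hint from the data and not from the design, and the wells were not treated as paired. The replicate block added the Mapt call in choroid plexus. Over all genes, 2464 calls between the genotypes became 3810 with no filter, and 1375 between the vehicle groups became 2087. For PMX205 in Arctic mice, in WT mice and for the difference, the 5, 0 and 0 calls became 200, 132 and 167 with no filter, 66, 112 and 7 with the block, and 18, 7 and 1 with nuclei named singly. Depth limits pericytes, choroid plexus, fibroblasts and endothelial nuclei most, since some wells of every group but not all held 10 nuclei of them, and it limits microglia in WT wells, where those used held 12 to 47.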

Other observations

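The 4500 nuclei that stayed unnamed, which enter no comparison, also carried App. Its lowest, median and highest levels in them were 558, 608 and 762 CPM in WT-veh and 628, 689 and 712 CPM in WT-PMX wells. They were 614, 781 and 1219.5 CPM in Arc-veh and 709, 869.9 and 1067 CPM in Arc-PMX wells, which overlapped with the WT wells. When nuclei were named singly, 4 comparisons were called that were not called in the main fit or the other alternatives of processing. Fits with a well left out are not part of that statement. Mapt in microglia stood at -0.78 (adjusted p = 0.029) between the genotypes and -1.19 (adjusted p = 0.035) between the vehicle groups, and Bace1 in astrocytes at -0.47 (adjusted p = 0.048) and -0.74 (adjusted p = 0.044). With nuclei named by cluster, 19.8% and 11.7% of all genes were called in microglia in these comparisons and 20.1% and 12.6% in astrocytes. The neuronal markers, also named by cluster, had a median of 1277 CPM in WT and 731 CPM in Arctic microglial nuclei, so they moved with Mapt, and their part in it was not tested. In astrocyte nuclei their medians were 988 CPM in WT and 661 CPM in Arctic wells, and their part in Bace1 was not tested.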
